A study of Mus musculus with 9 samples.

Results

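The genes described here are 38 mouse genes of the unfolded-protein response and of the ATF4 amino-acid response, out of 18193 genes with a named probe set on the array. They were chosen by symbol as 22 genes of an ATF4 arm and 16 genes of an ER chaperone arm, and each is represented by its probe set of highest mean signal over all 9 arrays. All 38 symbols were on the array, with 83 probe sets between them. Of the 38, 36 reached the mean signal of 100 set for testing: 20 of the 22 ATF4-arm genes and all 16 ER-arm genes. The transporters Slc7a11 and Slc7a3 lay below it and are given as signals with no test.

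The study measured total RNA of spontaneously immortalised mouse embryonic fibroblasts (MEFs), taken from E13.5 embryos, on 9 Affymetrix arrays. Cells of Suv420h1 knockout embryos gave 3 arrays: 1 of untransduced cells, 1 of cells carrying GFP, and 1 of cells given the deleted gene back as a Suv420h1-GFP fusion. These 3 arrays are called the null line, and the first 2 of them the null arrays. Wild-type cells carried lentiviral GFP or LacZ (the 2 control arrays), full-length PREX2 (1 array), or PREX2 cut short by the stop mutation K278*, E824* or Q1430*, 1 array each; these 6 arrays are called the wild-type line. Suv420h1, listed on the array as Kmt5b, is a methyltransferase of lysine 20 on histone H4, and PREX2 activates the small GTPase Rac. No source used here names the promoter that drives each construct. The labels name no separate lines or cultures within a genotype, so the Suv420h1 deletion cannot be told apart from other differences between the cells of the knockout and the wild-type embryos, and the p-values rest on array-to-array spread alone, which may be technical.

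When unfolded proteins gather in the endoplasmic reticulum (ER), the sensors PERK, IRE1 and ATF6 start separate branches of a response. PERK, like the amino-acid sensor GCN2, phosphorylates the translation factor eIF2alpha, which slows protein synthesis but favours translation of the transcription factor ATF4; ATF4 then drives genes for amino-acid synthesis, amino-acid uptake and tRNA charging. ATF6 and the spliced product of Xbp1 drive the chaperones and folding enzymes of the ER, and the array reads transcripts only, not ATF4 protein, eIF2alpha phosphorylation or Xbp1 splicing.

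Known promoter elements of the 2 arms were counted in the sequence before each gene. RefSeq promoters (mouse build GRCm38.p6, 250 bases before to 50 after the start of each gene) were given for 34 of the 38 genes, not for Slc7a5, Slc7a3, Atf6 and Manf. The C/EBP-ATF response element, the composite site that ATF4 binds with a C/EBP partner, was searched as TGATGNAA on both strands. It was found in 9 of 20 ATF4-arm promoters (45%), namely those of Aars, Asns, Atf3, Chac1, Gars, Nupr1, Slc7a11, Trib3 and Vldlr, against 1 of 14 ER-arm promoters (Herpud1) and 4.51% of all 27025 promoters. On the gene's own strand alone it was found in 2 ATF4-arm promoters, against 2.41% of all. The ER stress response element, bound by ATF6 together with the factor NF-Y, was searched on both strands as CCAAT, 9 bases of any kind and CCACG. It was found in 7 of 14 ER-arm promoters (50%), those of Calr, Canx, Creld2, Dnajc3, Hsp90b1, Hspa5 and Pdia6, in 0 of 20 ATF4-arm promoters, and in 0.137% of all. An element bound by spliced XBP1 and ATF6, searched as TGACGTGG, was in 0 of 34, against 0.714% of all. A match describes these letters in this window only, and binding was not measured. The genes were chosen as members of these responses and the elements are known ones of the same responses. The higher shares in the arms may follow from that choice.

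Below are 5 ATF4-arm promoter stretches, shown because they carry the same core in genes that differed between the lines in opposite directions or not beyond their spread, each printed 5′ to 3′ on the gene's strand with the matched fixed letters in capitals. They lie at chr7:126625553-126625600, minus strand (Nupr1), chr1:191183416-191183463, minus strand (Atf3), chr2:119351029-119351076, plus strand (Chac1), chr3:50443633-50443699, minus strand (Slc7a11) and chr19:27216800-27216847, plus strand (Vldlr).
Nupr1: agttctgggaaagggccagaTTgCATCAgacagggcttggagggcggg
Atf3: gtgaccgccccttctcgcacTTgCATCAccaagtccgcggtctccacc
Chac1: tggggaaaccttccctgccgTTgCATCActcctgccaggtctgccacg
Slc7a11: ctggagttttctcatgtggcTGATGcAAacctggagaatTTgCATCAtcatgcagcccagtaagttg
Vldlr: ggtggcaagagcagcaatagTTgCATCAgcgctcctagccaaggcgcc
In Nupr1 and Atf3 the match begins at the same distance, position -110 from the start, and in Slc7a11 there are 2 matches in opposite orientation.

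For the ER arm, 4 stretches are shown because they hold the same element in genes that rose (Calr and Pdia6), fell (Creld2) or did not pass (Hspa5) between the lines, at chr2:34772005-34772063, plus strand (Hspa5), chr8:84847055-84847113, minus strand (Calr), chr12:17266471-17266529, plus strand (Pdia6) and chr15:88819500-88819558, plus strand (Creld2), with the outer fixed letters of the element in capitals.
Hspa5: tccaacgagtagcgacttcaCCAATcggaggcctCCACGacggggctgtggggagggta
Calr: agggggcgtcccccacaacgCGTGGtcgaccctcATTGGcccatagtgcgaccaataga
Pdia6: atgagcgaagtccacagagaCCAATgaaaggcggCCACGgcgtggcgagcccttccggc
Creld2: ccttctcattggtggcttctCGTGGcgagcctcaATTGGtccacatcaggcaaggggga
Hspa5 and Pdia6 hold the element on the gene's strand, and Calr and Creld2 hold it on the opposite strand.

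Array-wide values and cell type markers are given first. The 2% trimmed mean signal was 497 on all 9 arrays, and the number of probe sets at a signal of 100 or more ran from 18298 to 19781. All 11 fibroblast markers reached a mean signal of 100 over the 9 arrays, but they were not alike in both lines. Thy1, a surface marker of fibroblasts, read 6.9 to 27.3 in the null line and 1097 to 3641 in the wild-type line, and Lum, a matrix proteoglycan gene, 48.6 to 75 and 24 to 525. The summed signal of the 11, most of it from Vim, S100a4, collagens and Fn1, was 146646 to 154888 on the null-line arrays and 152464 to 209345 on the wild-type-line arrays. Some listed markers of each other cell type were under 100 on every array. These were Pecam1, Cdh5 and Emcn of endothelium, Adgre1, Ptprc and Itgam of macrophages, and Cdh1, Krt18 and Krt14 of epithelium. Myod1, Myog and Myh3 of muscle, and Sox2 and Gfap of neural cells, were so as well. Other markers on the same lists were brighter, and some differed between the lines: Tek (43.4 to 91.3 in the null line, 55 to 488 in the wild-type line), Csf1r (198 to 206 and 294 to 544), Krt19 (46.6 to 89.1 and 209 to 374) and Acta1 (140.1 to 203 and 247 to 579). Lyz2 read 546 to 949 and 184 to 993, and Epcam 255 to 432 and 162 to 301. The neural markers Tubb3 and Map2 read 11.2 to 52.2 and 65.5 to 232 in the null line. In the wild-type line they read 98.1 to 375 and 762 to 1837. The summed signal of the endothelial list was 149 to 258 in the null line and 211 to 623 in the wild-type line, of the macrophage list 929 to 1292 and 706 to 1711, of the epithelial list 483 to 564 and 587 to 649, and of the muscle list 323 to 395 and 443 to 787. The summed signal of 5 neural markers, of which 3 reached a mean of 100, was 216 to 427 in the null line and 1049 to 2202 in the wild-type line. The part of these markers in the results was not tested. Of the Kmt5b probe sets, the brightest read 442 and 432 on the null arrays against 295 to 470 in the wild-type line. The next brightest read 536 and 462 on the null arrays and 554 with Suv420h1-GFP, above 221 to 338 in the wild-type line. A dimmer Kmt5b probe set read 8.85 and 17.3 on the null arrays, 150.3 with Suv420h1-GFP, and 118 to 182 in the wild-type line. Another dim one read 66.2 to 101 in the null line and 103 to 153 in the wild-type line. No source used here names the exons that the deletion removes. In these bulk samples, fewer cells of a type and less RNA in each cell cannot be told apart. The GFP wild-type array had the lowest signal of the 6 wild-type-line arrays for 11 of the 20 tested ATF4-arm genes, beside 34.8% of all genes.

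The first question was how the amino-acid arm and the ER arm differ between the knockout and the wild-type cells. Most ATF4-arm transcripts were lower in the null line, from the regulators Nupr1, Atf5 and Trib3 to the serine and one-carbon enzymes and the transporter Slc7a5, and Atf3 alone of the tested ATF4-arm genes rose. In the comparison of all 3 null-line arrays with all 6 wild-type-line arrays (limma on log2(signal + 25), Benjamini-Hochberg adjustment over 19090 probe sets, threshold 0.05), 15 of 20 ATF4-arm genes fell, 1 rose and 4 did not pass. Over all 10177 genes tested, 23.2% fell and 20.7% rose. The median log2 difference was -0.68 over the 20 ATF4-arm genes and -0.02 over all genes. In the narrower comparison of the 2 null arrays with the 2 control arrays, 11 fell, 1 rose and 8 did not pass, beside 10% falling and 10.2% rising over all genes, and the median was -0.64 against -0.03. The signals of 14 of the 20 ATF4-arm genes were lower on every null-line array than on any wild-type-line array, and those of 1 were higher, where 21.1% and 20.3% of all genes had that property. Without the GFP wild-type array 17 fell and 1 rose in the line comparison, where the share of all genes called was not computed. In that setting 17 were lower and 1 higher without overlap (26% and 23.7% of all genes), with a median of -0.72. Both comparisons use the same null and control arrays, so the second is no separate support for the first.

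The ER chaperone arm did not share that pattern. In the line comparison 5 of its 16 genes rose (Sdf2l1, Calr, Pdia4, Pdia6 and Pdia3), 2 fell (Creld2 and Manf) and 9 did not pass, with a median of 0.17. Over all genes 20.7% rose and 23.2% fell. The signals of 1 of the 16 were higher and those of 2 lower without overlap between the lines, beside 20.3% and 21.1% of all genes. At an unadjusted p under 0.05 the line comparison had 16 ATF4-arm genes lower (27.4% of all genes) and 5 ER-arm genes higher (24.5%). Between the null and control arrays limma called 0 of 16 in either direction, beside 10.2% of all genes rising and 10% falling. At an unadjusted p under 0.05, 7 were higher and 0 lower (16.9% and 17.9% of all genes), and the median was 0.26. The signals of 10 of the 16 were higher on both null arrays than on both control arrays, and those of 2 were lower. Over all genes 29% and 31.8% had that property. The rises were small, and without the GFP null array 0 of the 5 passed in the line comparison.

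**Figure D1:**
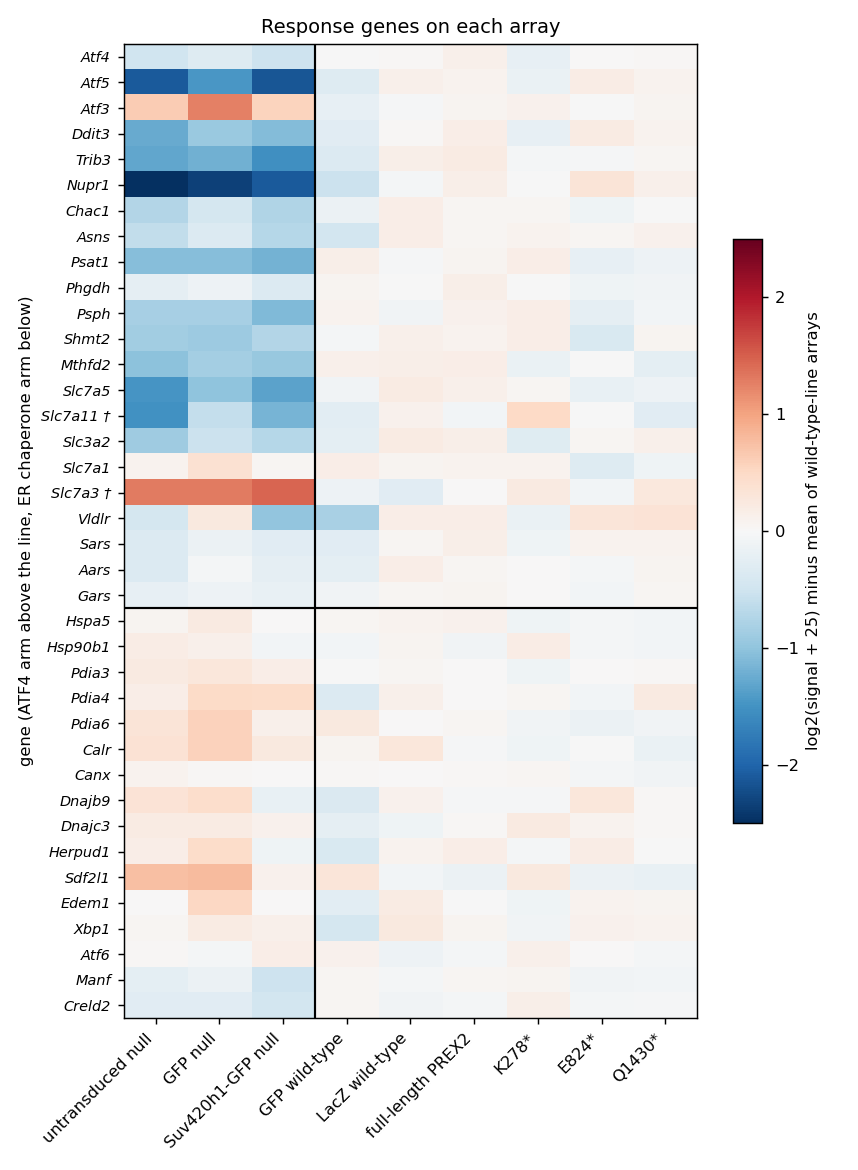
Each row is a gene and each column an array; colour gives log2(signal + 25) minus the gene's mean over the 6 wild-type-line arrays, and a dagger marks the genes below the mean signal of 100. The upper block (ATF4 arm) is mostly blue, lower, on the 3 null-line arrays, with Atf3 and Slc7a3 red, while the lower block (ER chaperone arm) is pale.

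The regulators of the ATF4 arm showed the widest differences. Signals are given below in a fixed order: for the null line untransduced, GFP and Suv420h1-GFP, and for the wild-type line GFP, LacZ, full-length PREX2, K278*, E824* and Q1430*. Nupr1, a small stress-induced chromatin-associated protein, read 572, 728 and 856 in the null line and 2598, 3643, 4153, 3722, 4682 and 4095 in the wild-type line. All 3 null-line arrays were below the lowest wild-type-line array, and the means were 719 ± 143 (SD, n = 3) and 3815 ± 702 (SD, n = 6). The log2 difference was -2.36 (SE 0.176; limma adjusted p = 2.65e-06). Its second probe set was lower by a log2 difference of -2.13. Atf5, a transcription factor related to ATF4, read 1083, 1702 and 1055 against 3744, 5116, 4996, 4203, 5331 and 5029. It fell by 1.89 on the log2 scale (SE 0.162, limma adjusted p = 7.46e-06), again with no overlap.

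Trib3, a pseudokinase that is induced by ATF4 and restrains it, read 522, 561 and 438 in the null line. On the wild-type-line arrays it read 1039.7, 1466, 1516, 1278, 1284 and 1371, so that the lowest of these, with GFP, was still above every null-line array. The log2 difference of Trib3 was -1.34 (SE 0.127; limma adjusted p = 1.52e-05), and its other probe set gave -1.75. Ddit3, which encodes the stress factor CHOP, read 1964, 2459.8 and 2211 and 3865, 4802, 5332, 4122, 5480.4 and 5032, with a log2 difference of -1.10 (limma adjusted p = 5.29e-05). A dim second Ddit3 probe set did not share the difference, at 0.03. Chac1, which degrades glutathione, read 1040.2, 1289 and 1022 against 1574, 1975, 1809, 1802, 1623 and 1746, a log2 difference of -0.64 (limma adjusted p = 0.00057). None of these 3 genes overlapped between the lines.

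The log2 difference of Atf4 itself was smaller than those of Nupr1, Atf5, Trib3 and Ddit3, and these differences were not tested against each other. Its signals were 8853, 9995 and 8838 in the null line and 12566, 12883, 13816, 10923, 12688 and 12826 in the wild-type line, where the lowest array was K278*. The lines did not overlap, and the log2 difference was -0.45 (SE 0.0782; limma adjusted p = 0.000946). A second Atf4 probe set differed by -0.10 and did not pass. Between the null and control arrays the difference of -0.43 passed (limma adjusted p = 0.0397) but was lost under 7 of 11 alternative settings, with adjusted p-values from 0.0387 to 0.224.

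Atf3, a transcription factor of the same family that many stresses and growth signals induce, went the other way. It read 483, 754 and 458 in the null line, highest with GFP, and 258, 297, 318, 327, 300.5 and 318 in the wild-type line. The lines did not overlap, and the log2 difference was 0.82 (SE 0.151; limma adjusted p = 0.00137). Between the null and control arrays it was 1.06 (limma adjusted p = 0.0154), but it no longer passed when the GFP null array was left out. Thus Nupr1 and Atf3, whose promoters match the same element at the same distance from the start, differed between the lines in opposite directions.

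**Figure D2:**
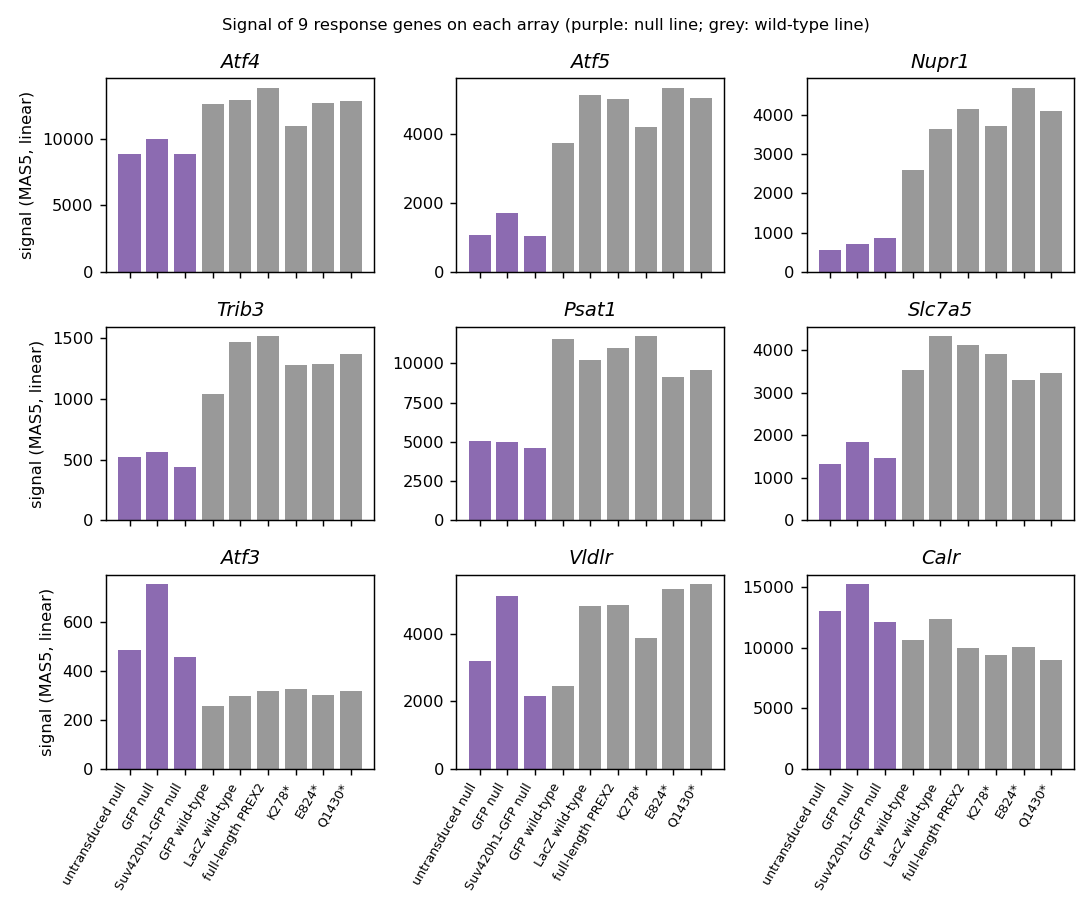
Bars give the deposited signal on a linear scale starting at 0 for 9 genes on each of the 9 arrays, purple for the null line and grey for the wild-type line. Nupr1, Atf5, Trib3, Psat1 and Slc7a5 are lower on all 3 purple bars, Atf3 is higher on them, and Vldlr ranges from 2165 to 5142 within the null line.

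The 6 enzymes of serine, glycine, one-carbon and asparagine synthesis all fell in the line comparison, with a median log2 difference of -0.88. Psat1, the aminotransferase of serine synthesis, read 5038, 5006 and 4599 against 11579.6, 10249.7, 11005, 11759.9, 9157 and 9599. The null-line values lay close together, all below the lowest wild-type-line value, and the log2 difference was -1.10 (SE 0.0899; limma adjusted p = 5.28e-06). Psph, the phosphatase of the last step of serine synthesis, read 1238, 1249 and 1017 against 2380.2, 2094, 2416, 2508, 1908 and 2115, a log2 difference of -0.92 (limma adjusted p = 7.32e-05). Phgdh, the first enzyme of the same pathway, differed far less. It read 9742, 10437 and 8956 against 11870.5, 11282, 12528, 11278, 10487 and 10675, and the highest null-line value was just under the lowest wild-type-line value. Its log2 difference of -0.22 (limma adjusted p = 0.0311) was lost under 7 of 15 alternative settings.

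Mthfd2, a mitochondrial folate enzyme, read 1488, 1683 and 1572 in the null line. Its wild-type-line values were 3359, 3383, 3428, 2735, 3025 and 2574, all of them higher, and the log2 difference was -0.95 (SE 0.108; limma adjusted p = 5.57e-05). Shmt2, the mitochondrial serine hydroxymethyltransferase, read 1181, 1138 and 1296 against 2081, 2362, 2320.5, 2419, 1659 and 2261. E824* gave the lowest wild-type-line Shmt2 value, still above the null line, and the log2 difference was -0.84 (limma adjusted p = 0.000273). Asns, asparagine synthetase, read 4367, 5302 and 4093 against 4890.2, 7598, 6999.6, 7122, 6928 and 7233. Here the groups overlapped, since the GFP wild-type array lay below the GFP null array, and the log2 difference was -0.56 (limma adjusted p = 0.00701). A second Asns probe set was lower without overlap, by a log2 difference of -0.68 (limma adjusted p = 0.000767). Between the null and control arrays neither probe set of Asns passed. The brightest differed by -0.34 (limma adjusted p = 0.281) and the second by -0.55 (limma adjusted p = 0.0742).

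Of the 4 tested transporters and receptors, 2 fell and 2 did not pass. Slc7a5, the light chain of the large neutral amino-acid transporter, read 1332, 1850.0 and 1464 against 3534, 4336, 4127, 3907, 3309 and 3460.3. The log2 difference was -1.28 (SE 0.121; limma adjusted p = 1.46e-05), with no overlap. Slc3a2, the heavy chain that pairs with Slc7a5 and Slc7a11, read 1849.6, 2366 and 2089 against 2922, 3947, 3837, 2780.0, 3579.9 and 3779, a log2 difference of -0.71 (limma adjusted p = 0.00135). The heavy chain fell by less than Slc7a5, and the 2 differences were not tested against each other. Slc7a1, a cationic amino-acid transporter, read 2941 to 3731 in the null line and 2285 to 3229.5 in the wild-type line and did not pass, at 0.17.

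The other 3 members of this class were Slc7a11, Slc7a3 and Vldlr. Slc7a11, the cystine transporter, read 24.2, 67.5 and 38.1 in the null line and 92.7, 127, 109.5, 173, 115 and 90 in the wild-type line, dim but without overlap. Slc7a3, a cationic amino-acid transporter, was dim in the opposite direction, with 140.1, 138 and 158 against 36, 29.5, 42.4, 52.7, 38.4 and 55.3. Neither reached the mean signal for testing, and the fold between such dim signals is not given. Vldlr, a lipoprotein receptor that ATF4 is known to induce, overlapped widely, from 2165 to 5142 in the null line and from 2447 to 5489.6 in the wild-type line, and did not pass at -0.39. The further Vldlr probe sets, all dimmer, overlapped between the lines as well, and their log2 differences ran from -0.13 to -0.97. The Vldlr promoter match, printed above, has the same core letters as that of Nupr1.

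The 3 tRNA synthetases chosen as members, which charge tRNA with serine, alanine and glycine, had small differences. Gars read 7209, 7601 and 7347 against 7877, 8597, 8731, 8356, 7963 and 8575, without overlap. Its log2 difference was -0.18 (limma adjusted p = 0.0358) and was lost under 9 of 15 alternative settings. Sars, at 3154 to 3586 in the null line and 3257 to 4448 in the wild-type line, did not pass (-0.26). Aars did not pass either, at 3948 to 4844 against 4263 to 5626.5 (-0.21). A dimmer Aars probe set was lower without overlap, by a log2 difference of -0.32 (limma adjusted p = 0.0251). The probe sets of Aars thus disagreed on the call.

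**Figure D3:**
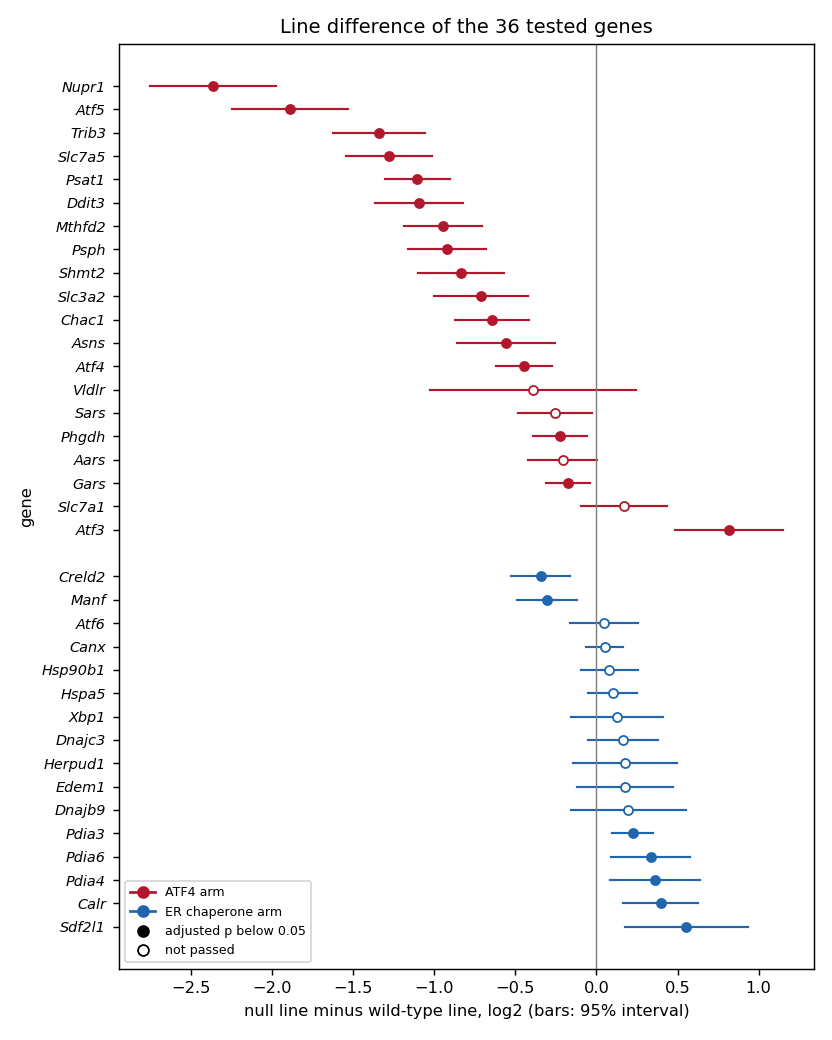
Points give the log2 difference, null line minus wild-type line, for the 36 tested genes, with 95% intervals from limma; filled points passed the adjusted threshold of 0.05. The ATF4-arm genes (red) run from -2.36 for Nupr1 to 0.82 for Atf3, and the ER-arm genes (blue) from -0.34 for Creld2 to 0.55 for Sdf2l1.

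Among the ER chaperones, which fold and hold proteins in the ER, all 7 differences in the line comparison were positive, with a median of 0.22, and 4 passed. Calr, the lectin chaperone calreticulin, read 12991, 15252 and 12107 in the null line and 10628, 12339.8, 9925, 9406, 10038 and 9003 in the wild-type line. LacZ was the high wild-type-line array and overlapped the null line; the log2 difference was 0.40 (SE 0.104; limma adjusted p = 0.0106). Both other Calr probe sets rose, by 0.59 and 0.53. Pdia3, the disulfide isomerase that works with calreticulin, read 13723, 14283 and 13271 against 11684, 12255, 11923, 10898, 11857 and 12073. Judged by the brightest probe set, it was the only ER-arm gene to be higher without overlap, where 20.3% of all genes were. Its log2 difference was 0.22 (SE 0.0574, limma adjusted p = 0.00919). Dimmer probe sets of Calr, Hspa5, Canx and Dnajc3 were also higher without overlap.

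Pdia4, a further disulfide isomerase, read 1822, 2271 and 2236 against 1279, 1791, 1638, 1693, 1551 and 1897. The untransduced null array lay below the Q1430* array, and the log2 difference was 0.36 (limma adjusted p = 0.0389). Pdia6 read 6974, 8335 and 6088 against 6665, 5653, 5776, 5283, 5090.2 and 5284, with the GFP wild-type array above the Suv420h1-GFP null array. Its log2 difference was 0.34 (limma adjusted p = 0.0302); both Pdia4 and Pdia6 lost the call under 6 of 15 alternative settings. The remaining chaperones did not pass. Hspa5, the ER chaperone BiP, ranged from 20300.3 to 23602 in the null line and from 18686 to 21614 in the wild-type line (0.099). A second Hspa5 probe set with a lower mean signal rose by 0.40 (limma adjusted p = 0.00203), so the probe sets of Hspa5 disagreed on the call. Hsp90b1, the ER member of the HSP90 family, ranged from 17393 to 20802 against 17108 to 20737 (0.079), and its other probe set went the other way, at -0.24 and not past the test. Canx, the membrane-bound calnexin, ranged from 17444 to 18417 against 16246 to 17711 (0.051). A dimmer Canx probe set, at 836 to 888 in the null line and 583 to 725 in the wild-type line, rose by 0.46 (limma adjusted p = 0.00212), so the probe sets of Canx disagreed as well.

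Of the 5 co-chaperones and degradation factors, Sdf2l1 alone passed. Sdf2l1, an ER-resident partner of BiP, read 1233, 1261 and 779 against 889, 684, 646, 859.6, 651 and 626. The untransduced and GFP null arrays were highest and the Suv420h1-GFP array fell among the wild-type line; the log2 difference was 0.55 (SE 0.172; limma adjusted p = 0.0233), lost without the untransduced or the GFP null array. Dnajb9, a BiP co-chaperone, ranged from 1639 to 2566 against 1453 to 2277. Dnajc3, which inhibits PERK, ranged from 3105 to 3333 against 2460.3 to 3367.5. Herpud1, a factor of ER-associated degradation, ranged from 2047 to 3016 against 1683.5 to 2492. Edem1, which directs misfolded glycoproteins to degradation, ranged from 2208 to 3148 against 1825 to 2522. These 4 differed by 0.17 to 0.20 on the log2 scale and did not pass; a second Edem1 probe set fell, by 0.41.

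The secreted ER factors went the other way. Manf, a protein released on ER stress, read 6522, 6933 and 5391 against 7998, 7512, 8027, 8145, 7307 and 7398. The lines did not overlap, and the log2 difference was -0.31 (SE 0.0842; limma adjusted p = 0.0133), lost without the Suv420h1-GFP array. Creld2, likewise an ER-stress-induced secreted protein, read 2001, 2016 and 1773 against 2556, 2318, 2357, 2717, 2379.5 and 2416. It too was lower without overlap, by a log2 difference of -0.34 (SE 0.0817; limma adjusted p = 0.00598). Judged by the brightest probe set of each, Creld2 and Pdia6, whose promoters both match the ER stress response element, thus moved in opposite directions. The transcripts of the transcription factors did not pass: Xbp1 ranged from 8880 to 9923 against 6363 to 10244 (0.13), and Atf6 from 492 to 576 against 465.7 to 556 (0.048). Of the other 2 Atf6 probe sets, both dimmer, 1 fell by 0.86 (limma adjusted p = 0.000899).

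Other probe sets of the same genes mostly went the same way as the brightest. In the line comparison, 20 of 21 further ATF4-arm probe sets and 15 of 19 further ER-arm probe sets had the sign of the brightest one. The exceptions were a probe set each of Ddit3, Hsp90b1 and Edem1 and both further probe sets of Atf6.

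The mean level of each arm shows how the arrays lie. Averaged over the 20 tested ATF4-arm genes, log2(signal + 25) was 11.06, 11.33 and 11.06 on the 3 null-line arrays. The wild-type-line arrays read 11.69 with GFP and 11.85 to 11.98 on the other 5, all above the null line. For the 16 ER-arm genes the means ran from 12.08 to 12.34 in the null line and from 11.99 to 12.12 in the wild-type line, which overlap. Over all 10177 genes the means were 9.70 to 9.79.

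**Figure D4:**
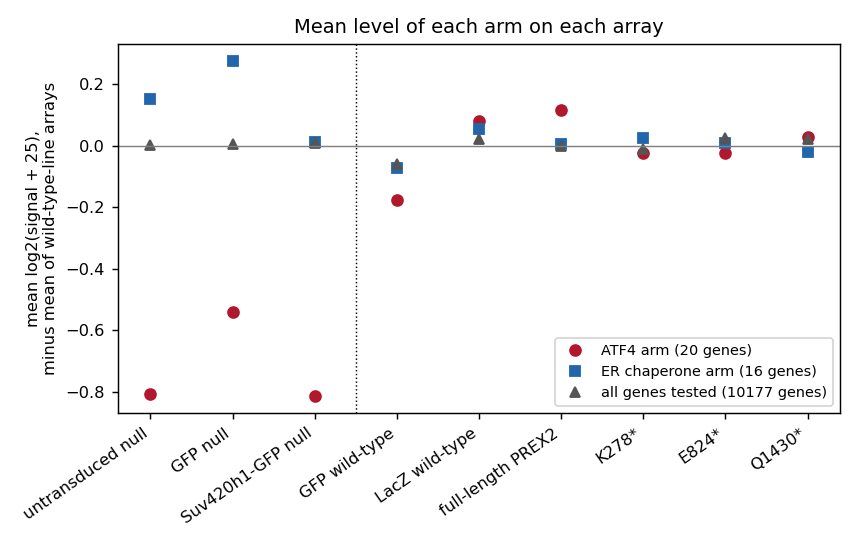
Points give the mean log2(signal + 25) of the ATF4 arm (20 genes), the ER chaperone arm (16 genes) and all 10177 genes on each array, minus the mean of the 6 wild-type-line arrays. The ATF4-arm points of the 3 null-line arrays lie below every wild-type-line point, with GFP null the highest of the 3 and GFP wild-type the lowest of the 6; the ER-arm points overlap.

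The GFP null array was the highest of the null line for 17 of 20 ATF4-arm genes and 13 of 16 ER-arm genes, against 31.7% of all genes. The Suv420h1-GFP array was the lowest for 11 and 13, against 33.5% of all genes. In the wild-type line the GFP array was the lowest of 6 for 11 of 20 ATF4-arm genes and 6 of 16 ER-arm genes, and for 34.8% of all genes. Set against the LacZ array, 1 array each and so without a test, 11 of 20 ATF4-arm genes were lower by more than 1.2-fold with GFP and 0 were higher, with a median log2 difference of -0.30 against -0.03 for all genes. Over all genes, 31.3% were lower and 24.7% higher by that much. In the ER arm 5 of 16 were lower and 1, Sdf2l1, was higher. Vldlr differed most, at 2447 with GFP and 4831 with LacZ. Xbp1 read 6363 and 10244, and Asns 4890.2 and 7598. These 2 arrays are the control group of the PREX2 comparisons. Between the null arrays and LacZ alone, the median log2 difference was -0.75 over the ATF4 arm and -0.04 over all genes. Leaving out a null or control array leaves 1 array in its group. Fewer ATF4-arm genes passed when either null array was left out than with both. The share of all genes passing under these settings was not computed, so the drop cannot be read as particular to the ATF4 arm.

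The second question was whether putting Suv420h1 back moved these genes. Between the Suv420h1-GFP array and the 2 null arrays limma called 0 of 20 ATF4-arm and 0 of 16 ER-arm genes, as it called 0% of all genes in either direction. At an unadjusted p under 0.05, 0 ATF4-arm genes and 3 ER-arm genes were lower (1.7% of all genes) and 0 were higher in either arm (1.61%). Those 3 were Sdf2l1, at -0.66, Dnajb9, at -0.59, and Manf, at -0.32. The median was -0.11 over the ATF4 arm and -0.20 over the ER arm, against 0.02 for all genes. Nupr1, the gene of the most negative line difference, differed by 0.39 with a 95% interval of -0.20 to 0.99, and Atf5 by -0.36 (-1.06 to 0.35). Nupr1 on the Suv420h1-GFP array, at 856, remained below the lowest wild-type-line value of 2598. The largest difference was that of Vldlr, at -0.90 (limma unadjusted p = 0.075), which read 2165 on the Suv420h1-GFP array and 3205 and 5142 on the null arrays.

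The third question was whether full-length or truncated PREX2 moved the genes in wild-type cells. The brighter Prex2 probe set read 795 with full-length PREX2 and 809, 722 and 703 with K278*, E824* and Q1430*, against 452 with GFP and 677 with LacZ. The PREX2 arrays were thus all above both controls, but close to LacZ; whether the probes read the introduced construct is not known from the sources used here. With full-length PREX2 limma called 0 of 20 and 0 of 16 against the 2 control arrays, beside 0% of all genes in either direction, and 0 members were past an unadjusted p of 0.05 (0.334% of all genes higher and 0.786% lower). The ATF4-arm differences were positive for 19 of 20 genes, beside 5286 of all 10177 genes. Their median was 0.12 against 0.01 for all genes, and the ER-arm median was 0.02. Set against the LacZ array alone, 13 of the 20 and 4914 of the 10177 were positive, with medians of 0.02 and -0.01. With the 3 truncated forms together 0 members were called, beside 0.00983% of all genes rising and 0% falling, and the medians were 0.00 and 0.03. Against LacZ alone these medians were -0.09 and -0.05. Without the GFP wild-type array both PREX2 comparisons again gave 0 calls. At an unadjusted p under 0.05 Mthfd2 differed by -0.28, Calr by -0.27 and Dnajc3 by 0.28; 1.01% of all genes were lower and 1.72% higher at that level. On its brightest probe set Mthfd2 read 2735, 3025 and 2574 with the truncated forms and 3359 and 3383 in the controls, without overlap. Its second probe set read 2036, 1863 and 2027 against 1852 and 2220, which overlap, with a log2 difference of -0.04. Both other Calr probe sets also overlapped between the truncated forms and the controls. The further probe sets of Dnajc3 did not all go the same way.

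For Nupr1 and Vldlr the differences in the PREX2 comparisons were smaller than the gap between the controls, where GFP minus LacZ was -0.48 and -0.97 on the log2 scale. Nupr1 differed from the controls by 0.43 with full-length PREX2 (-0.16 to 1.02, 95% interval) and by 0.43 with the truncated forms (-0.012 to 0.87). Vldlr differed by 0.50 (-0.52 to 1.51) and 0.49 (-0.27 to 1.25). Both comparisons use the same 2 control arrays. Set against full-length PREX2 directly, the truncated forms gave 0 calls in either arm, beside 0% of all genes, and 0 at an unadjusted p under 0.05 (0.806% of all genes higher and 0.226% lower). The ATF4-arm differences in that comparison were negative for 19 of 20 genes, with a median of -0.13 against -0.0025 for all genes. The share of all genes with a negative difference was not computed. These differences rest on 1 array of full-length PREX2. The positive differences of full-length PREX2 from the controls rest on the same array, so the 2 patterns are not separate. The ER-arm median was -0.01. With 4 residual degrees of freedom and 1 to 3 arrays in each group, the intervals leave room for differences of the sizes shown, and a missing call does not show that the groups are alike.

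**Figure D5:**
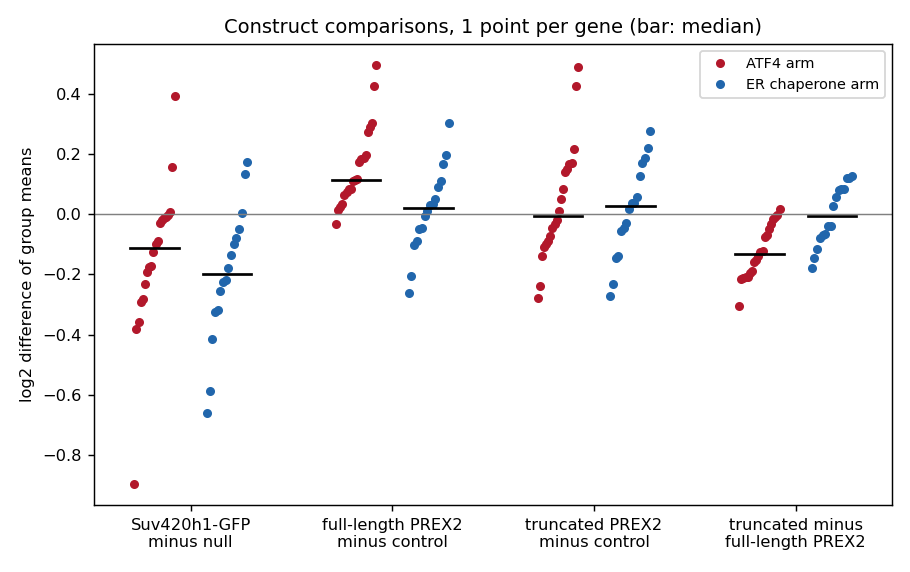
Each point is 1 gene's log2 difference in 1 of the 4 construct comparisons, red for the ATF4 arm and blue for the ER chaperone arm, with a bar at each median. Medians lie between -0.20 and 0.12, and the point lowest of all is Vldlr with Suv420h1-GFP, at -0.90.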

How the data were processed

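The values are probe-set signal intensities on a linear scale that the authors deposited for 9 Affymetrix arrays, computed with MAS5 per the submitters' processing notes; no source used here gives its version or settings. The table held 45101 probe sets, of which 64 controls were left out; the platform annotation paired 34945 with 1 gene, 932 with more than 1, and 9160 with none. Signals were taken as log2(signal + 25), with no further scaling, and 19090 probe sets with a mean of at least 100 were tested with limma 3.58.1 in R 4.3.3 (intensity trend, Benjamini-Hochberg adjustment). The 5 group means were fitted together (4 residual degrees of freedom), and the line comparison was a separate fit of 3 against 6 arrays (7 residual degrees of freedom). Counts over all genes use 1 probe set for each of 10177 genes. The scripts were tested on simulated data.

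The alternatives changed the offset (5 or 100), the minimum signal (none or 200), the scaling (quantile), the intensity trend (off), the arrays fitted (only those compared), the probe set (any of a gene), or left out 1 array; leaving arrays out for the 4 further lists, and the medians and overlaps without the GFP wild-type array, were added after seeing the data. The 1.2-fold used to set GFP beside LacZ was likewise chosen after seeing the data. The members and lists were chosen with earlier results of these data known. By the rule for named genes, every member is accounted for, members that passed in any comparison are given on all 9 arrays, and of the further lists up to 4 genes for each direction with the largest differences among those that passed are named. MAS5 scales each array to a common level, so a change in total RNA of a cell cannot be seen. RefSeq promoters were matched by symbol.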

Additional observations from a re-analysis of the deposited data

Results flagged for a closer look

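In the wild-type line, the Asns signal of 4890 on the GFP array lay far below the other 5 arrays, which read 6928 to 7598; its gap to the nearest was 0.79 of the whole range on the log2 scale. Of 40 groups of values looked at in this way, 1 stood out, and chance flags about 1 in 20 groups, or 2 of 40. Without the GFP wild-type array Asns passed in the line comparison as it did with it.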

How the results depend on the processing

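The calls of 13 of the 15 fallen ATF4-arm genes and of Atf3 in the line comparison held in all 15 alternative settings; the exceptions were Gars and Phgdh. With no filter on low signals, which adds Slc7a11 and Slc7a3, 2 ATF4-arm genes rose in the line comparison and 2 between the null and control arrays, and 3 ER-arm genes rose in the line comparison. With the compared groups alone 0 ATF4-arm genes rose between the null and control arrays, and with quantile normalization 1 ER-arm gene did. Counting a gene when any of its tested probe sets passed, 8 ER-arm genes rose and 4 fell in the line comparison, and 3 rose and 1 fell between the null and control arrays. Of the 38 members, 26 have several probe sets, and this rule can only add calls. The share of all genes called was computed for the main fit only, with 1 probe set per gene. Counts under the alternative settings therefore have no such share beside them. Leaving out 1 array at a time, the line comparison gave 13 to 17 falling ATF4-arm genes, 0 to 5 rising ER-arm genes (0 without the GFP null array) and 1 to 2 falling ones (1 without the Suv420h1-GFP array). The comparison of null and control arrays gave 5 to 12 falling and 0 to 1 rising ATF4-arm genes, and 0 to 4 rising ER-arm genes (4 without the LacZ array and 1 without the GFP wild-type array). Ddit3 and Trib3 lost their call there without the untransduced null array, Psph and Shmt2 without either null array, and Chac1 under 6 of 11 settings. The construct comparisons gave 0 calls in both arms under every setting run. No paired analysis was possible because the labels carry no replicate numbers that could tie arrays of different groups. With 9 arrays, array number bounds all of these values.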

Other observations

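Neighbouring genes of the same pathways were read from 4 further lists. Of 16 other tested aminoacyl-tRNA synthetases, 10 fell in the line comparison and 0 rose (limma, adjusted p under 0.05), where 23.2% of all genes fell and 20.7% rose. Wars fell by 0.95 on the log2 scale, Tars by 0.91, Lars by 0.91 and Cars by 0.89; they charge tRNA with tryptophan, threonine, leucine and cysteine. Of 18 other ATF4-linked genes of metabolism and transport, 10 fell and 2 rose, beside the same shares of all genes. Aldh1l2, a mitochondrial folate enzyme, fell by 2.29, Slc6a9, a glycine transporter, by 1.32, Gpt2, an alanine transaminase, by 1.26, and Stc2, a secreted glycoprotein, by 1.10. Slc1a5, a glutamine transporter, rose by 0.82 and the growth factor gene Vegfa by 0.23, a call that was lost on leaving out any 1 array other than GFP or LacZ wild-type. Between the null and control arrays 8 of the 16 and 6 of the 18 fell, beside 10% of all genes. Fewer did so when either null array was left out, which leaves 1 array in that group. The share of all genes was not computed there.

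Of 12 tested sensors and kinases of the response, with their phosphatase subunits and C/EBP partners, 7 rose and 2 fell in the line comparison, where 20.7% of all genes rose and 23.2% fell. The eIF2alpha kinase genes Eif2ak2, Eif2ak4 and Eif2ak3 (PKR, GCN2 and PERK) rose by 1.25, 0.56 and 0.50, and Ppp1r15a, which directs dephosphorylation of eIF2alpha, by 0.69. The ATF4 partners Cebpb and Cebpg fell by 1.04 and 0.88. The Eif2ak4 call was lost without the untransduced null array, and that of Eif2ak3 without the GFP null or the Suv420h1-GFP array. Of 24 other tested genes of ER folding, degradation and translocation, 8 rose and 6 fell, that is 33.3% and 25%, against 20.7% and 23.2% of all genes; the falling share is near that of all genes. Pdia5 rose by 0.70, Ero1b by 0.55, Hyou1 by 0.52 and Syvn1 by 0.46. Ero1a, an ER oxidase, fell by 1.78, Wfs1 by 0.50, Derl1 by 0.46 and Dnajc10 by 0.40. The calls of Ero1b and Wfs1 were each lost on leaving out any 1 null-line array, and that of Hyou1 without the GFP null or the Suv420h1-GFP array. All 4 lists were chosen with earlier results of these data known.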
